A study of Homo sapiens with 19 samples.

Results

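Collagen becomes a stable extracellular fibre only after enzymes have modified its chains, and this account follows 10 genes for those enzymes in a breast cancer cell line. They are the 5 lysyl oxidases (LOX, LOXL1, LOXL2, LOXL3 and LOXL4), the 3 alpha subunits of collagen prolyl 4-hydroxylase (P4HA1, P4HA2 and P4HA3) and the lysyl hydroxylases PLOD1 and PLOD2. The genes were taken by symbol, with earlier results of these data known, and so were the lists of pathway genes further on. All 10 were found in each of 3 expression tables, which listed 19021, 26955 and 28870 genes. All 10 also passed the filter on low values, a mean normalized count of at least 10, in each table. A normalized count is a gene's reads divided by the size factor of its library, and the tables were scaled separately, so levels are compared only within a table.

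Every library came from MDA-MB-231, an established human line of triple-negative breast cancer, and each fold change below is a change in the bulk RNA of a culture. The culture table has 2 libraries each of adherent cells, of spheres at 16 h and of spheres at 5 d. Adherent cultures were kept in DMEM and 10% FCS. Spheres formed in suspension on non-adherent plates, in DMEM/F12 containing the B27 supplement and 20 ng per ml each of FGF and EGF. In the other tables, cells received an siRNA and then spent 48 h in that sphere medium: siSCIRT 1 and siSCIRT 2 (n = 3 each), which target the long noncoding RNA SCIRT, against a control siRNA, siNC (n = 3), and siEZH2 (n = 2), which targets the histone methyltransferase EZH2, against siNC libraries of its own (n = 2). No genetic change was added to the line, and siNC cells were transfected and held in sphere medium too. Whether the replicates came from separate cultures is not stated in the labels, so the p-values cover the spread of these libraries and no more. Serum, medium and growth factors change together with attachment between the culture groups, and their effects cannot be told apart.

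Prolyl 4-hydroxylase is a tetramer in which an alpha subunit carries the active site and the protein disulfide isomerase P4HB serves as the other subunit. It converts prolines of the collagen repeat into 4-hydroxyproline, which holds the triple helix together at body temperature. Lysyl hydroxylases act on lysines of the same nascent chains, in the helix and, for PLOD2, in the telopeptides at the chain ends. Lysyl oxidases are copper enzymes that work after secretion and turn lysine and hydroxylysine side chains into aldehydes, from which covalent cross-links form. In breast tumours LOX, P4HA1 and PLOD2 are known, among other genes, as targets of the hypoxia-inducible factor HIF-1 and have been tied to stiff matrix and metastasis. The hydroxylases also need oxygen, iron and ascorbate.

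Libraries held 6104222 to 14781941 reads in the culture table, 38635418 to 62218847 in the siSCIRT table and 27989577 to 38955312 in the siEZH2 table. The mesenchymal and basal markers of the line were abundant, VIM at 31547 to 62201 and CD44 at 4468 to 6150 normalized counts in the culture table. CDH1 and ESR1 stayed under the filter in all 3 tables, PGR was not listed in the culture table and under the filter in the others, and EPCAM ranged from 23.2 to 93.8 in culture. Of 9 markers of fibroblasts, endothelium and leukocytes, 6 were listed in the culture table, PECAM1 not among them. Their summed normalized counts were 95.1 to 113 in adherent cells, 1056 to 1072 in spheres at 16 h and 66.2 to 89.0 in spheres at 5 d. DCN, the proteoglycan decorin, averaged 0.304 in adherent cells, 1006 in spheres at 16 h and 7.22 in spheres at 5 d, and without it the sums were 95.1 to 113, 42.6 to 73.3 and 60.1 to 80.7. PTPRC was at 0 in 16 h spheres, and FAP in adherent cells and 5 d spheres. The share of reads from mitochondrial genes was 6.83 to 6.89% in adherent cells, 8.55 to 8.56% in spheres at 16 h and 9.65 to 9.74% in spheres at 5 d. The part of these in the culture results was not tested. In the siRNA tables the marker sums were 299 to 323 with siSCIRT 1 and 329 to 361 with siSCIRT 2, against 256 to 324 with siNC, and 401 to 469 with siEZH2, against 377 to 461 with siNC.

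The first question was how the 10 genes differ between adherent cells and spheres. At 16 h, 6 of the 10 rose against adherent cells, LOX, LOXL4, P4HA1, P4HA2, PLOD1 and PLOD2. LOXL2 and P4HA3 fell, and LOXL1 and LOXL3 did not pass the test. The test was limma on log2(normalized count + 1), with a Benjamini-Hochberg adjusted p under 0.05 over all 13789 genes tested. By the same test 53.9% of all genes were called, 27.4% higher and 26.5% lower, so that about as many genes fell as rose in the table as a whole. In 8 of the 10 genes the 16 h and adherent libraries did not overlap, as in 77.0% of all genes tested. The median log2 fold change of the 10 genes was 1.45, against -0.01 over all genes tested.

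LOX, a lysyl oxidase, showed the largest change at 16 h of the 10 genes. It held 1023 and 1008 normalized counts in adherent cells, 19713 and 19933 in spheres at 16 h and 2532 and 2416 in spheres at 5 d. The libraries formed 3 tiers with no overlap, the 16 h spheres far above the others. Against adherent cells LOX was 19.5-fold higher at 16 h, a log2 fold change of 4.29 ± 0.03 (SE, limma adjusted p = 1.6e-45), and 2.43-fold higher at 5 d, 1.28 ± 0.03 (adjusted p = 9.9e-28). Between the sphere times LOX was lower at 5 d by 3.00 on the log2 scale (adjusted p = 1.4e-39).

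LOXL4, a paralogue of LOX with scavenger receptor domains, stayed high at 5 d. It stood at 413 and 497 normalized counts in adherent cells, 1755 and 1996 in spheres at 16 h and 1540 and 1531 in spheres at 5 d. Both sphere times lay well above adherent cells and close to each other. The log2 fold changes against adherent cells were 2.04 ± 0.07 at 16 h (limma adjusted p = 2.2e-22) and 1.76 ± 0.07 at 5 d (adjusted p = 2.6e-20). The step down at 5 d against 16 h was -0.29 ± 0.07 (adjusted p = 0.0015). That step lost its call without 16 h sphere replicate 2, at -0.19 (adjusted p = 0.10), and without the trend in eBayes (adjusted p = 0.14).

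LOXL2, which also acts inside cells and is known for its part in the epithelial-mesenchymal transition, moved little. Its normalized counts were 3165 and 3248 in adherent cells, 2561 and 2546 in spheres at 16 h and 3264 and 3368 in spheres at 5 d. The 16 h libraries were the lowest, and the 5 d libraries were just above the adherent ones. LOXL2 fell at 16 h by 0.33 on the log2 scale (limma, SE 0.04, adjusted p = 2.0e-09), and at 5 d its value was 0.05 ± 0.04 (adjusted p = 0.29). At 5 d it was 0.38 ± 0.04 above 16 h (adjusted p = 1.3e-10).

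LOXL1, the paralogue needed for elastic fibre upkeep, and LOXL3 were low. LOXL1 had 81.5 and 59.1 normalized counts in adherent cells, 109 and 74.5 in spheres at 16 h and 123 and 111 in spheres at 5 d. It rose at 5 d by 0.74 ± 0.23 (limma adjusted p = 0.0055), a call lost without adherent replicate 2 (0.52, adjusted p = 0.13) and without the trend (adjusted p = 0.071). At 16 h the groups overlapped, with a log2 fold change of 0.37 ± 0.23 (adjusted p = 0.17) that became a call without 16 h sphere replicate 2 (0.64, adjusted p = 0.046). LOXL3 ranged from 102 to 161 across the 6 libraries and was called in no culture comparison. Without 5 d sphere replicate 2 it was called lower at 5 d against adherent cells (-0.56, adjusted p = 0.022) and against 16 h spheres (-0.50, adjusted p = 0.048).

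**Figure D1:**
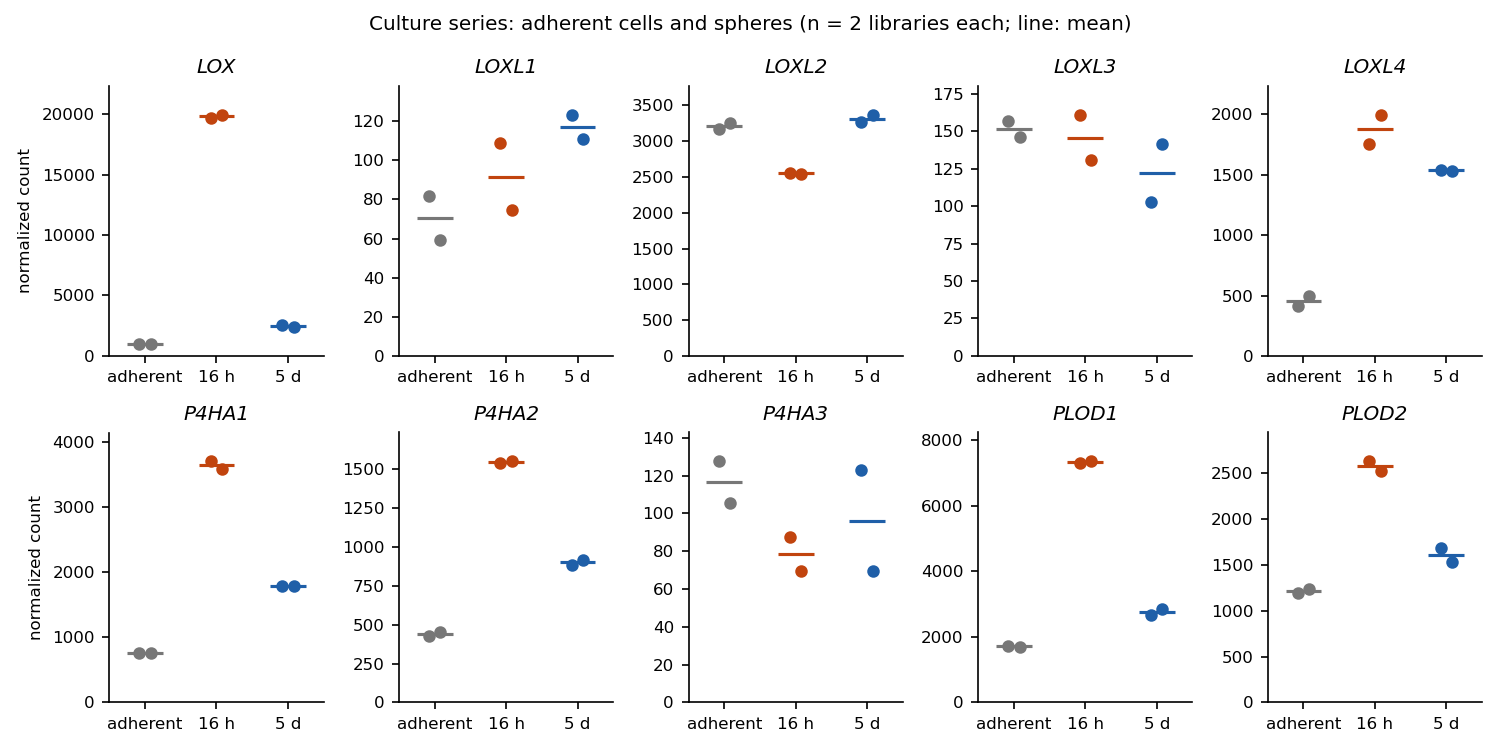
Normalized counts of the 10 genes in the culture table, 1 panel per gene with its own axis from 0, in adherent cells, 16 h spheres and 5 d spheres; points are libraries and lines are means of 2. LOX, P4HA1, P4HA2, PLOD1 and PLOD2 peak at 16 h, LOXL4 stays high at 5 d (1540 and 1531), and LOXL2 is lowest at 16 h (2561 and 2546).

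P4HA1, the main alpha subunit of prolyl 4-hydroxylase in most tissues, rose at both times. It held 759 and 763 normalized counts in adherent cells, 3706 and 3587 in spheres at 16 h and 1792 and 1786 in spheres at 5 d. Replicate libraries were nearly equal, and the 5 d spheres lay between the other groups. Its log2 fold changes against adherent cells were 2.26 ± 0.05 at 16 h (limma adjusted p = 3.2e-31) and 1.23 ± 0.05 at 5 d (adjusted p = 1.8e-22), and it was lower at 5 d than at 16 h by 1.03 (adjusted p = 6.0e-20).

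P4HA2, the second alpha subunit, followed the same order. Its normalized counts were 429 and 452 in adherent cells, 1538 and 1549 in spheres at 16 h and 882 and 918 in spheres at 5 d. The rise against adherent cells was 1.81 ± 0.07 at 16 h (limma adjusted p = 3.3e-23) and 1.03 ± 0.07 at 5 d (adjusted p = 1.5e-15). P4HA3, the third subunit, was low and scattered: 128 and 105 in adherent cells, 87.4 and 69.6 in spheres at 16 h and 123 and 69.3 in spheres at 5 d. It fell at 16 h with an adjusted p of 0.040 (limma, log2 fold change -0.57 ± 0.23). That call was lost without adherent replicate 1 (-0.43, adjusted p = 0.26) or 16 h sphere replicate 2 (-0.40, adjusted p = 0.27), and also with no filter, quantile normalization, no trend or DESeq2. Its 5 d value was -0.32 ± 0.23 (adjusted p = 0.25). Without 5 d sphere replicate 1 P4HA3 was called lower at 5 d (-0.73, adjusted p = 0.015), and without replicate 2 its value turned to 0.09 against adherent cells and it was called higher than at 16 h (0.65, adjusted p = 0.027).

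PLOD1, a lysyl hydroxylase of the collagen helix, stood at 1730 and 1689 normalized counts in adherent cells, 7300 and 7351 in spheres at 16 h and 2674 and 2850 in spheres at 5 d. The 16 h libraries stood far above the rest. PLOD1 was 4.28-fold higher at 16 h than in adherent cells (limma adjusted p = 6.3e-34) and 1.61-fold higher at 5 d, 0.69 ± 0.04 on the log2 scale (adjusted p = 3.4e-18). PLOD2, the telopeptide lysyl hydroxylase whose product gives the pyridinoline cross-links of stiff tissue, had 1191 and 1233 in adherent cells, 2626 and 2523 in spheres at 16 h and 1682 and 1525 in spheres at 5 d. Its rise was the smallest of the 6 at 16 h, 1.09 ± 0.05 (adjusted p = 4.3e-20), and at 5 d it was 0.40 ± 0.05 (adjusted p = 2.9e-08).

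Across the 10 genes, 7 rose at 5 d against adherent cells and none fell, beside 55.2% of all genes called, 26.3% higher and 28.9% lower. The 7 were LOX, LOXL1, LOXL4, P4HA1, P4HA2, PLOD1 and PLOD2, and the median of the 10 was 0.72, against -0.02 over all genes. The libraries did not overlap in 9 of the 10, as in 77.7% of all genes. At 5 d against 16 h, 6 were lower and LOXL2 was higher, beside 48.3% of all genes called, 25.5% lower and 22.8% higher. The median of the 10 was -0.48, against 0.00 over all genes, and 8 of the 10 did not overlap, as did 71.0% of all genes. PLOD1 was lower at 5 d than at 16 h by 1.41, P4HA2 by 0.78 and PLOD2 by 0.68. Both sphere comparisons share the adherent libraries.

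**Figure D2:**
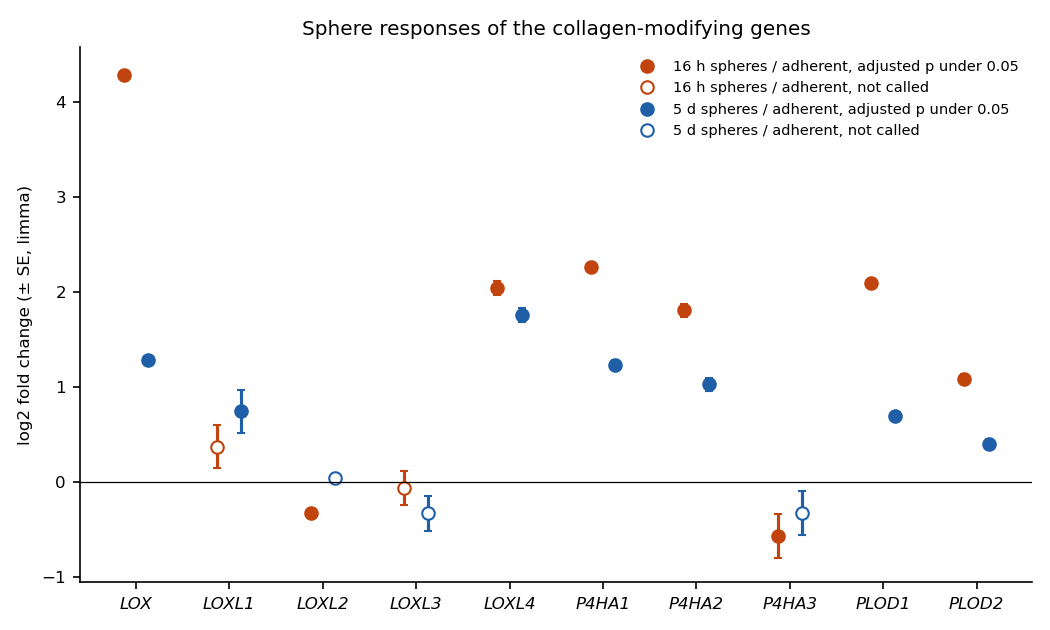
Log2 fold change of each gene in 16 h and 5 d spheres against adherent cells, with the standard error of the limma fit; filled points passed an adjusted p under 0.05 and open points did not. LOX stands at 4.29 at 16 h and 1.28 at 5 d, while LOXL4 holds 2.04 and 1.76.

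Because long genes gather more reads, levels of different genes were compared as normalized count per kb of exon, with exon lengths from GENCODE 29 on GRCh38, another build than that of the tables. On this scale the lysyl oxidases changed places. In adherent cells LOXL2 was the most abundant of the 10 genes at 562 ± 10.3 per kb (SD, n = 2) and made up 60.8% of the lysyl oxidase sum, with LOX at 19.8% and LOXL4 at 13.5%. In 16 h spheres LOX led all 10 genes at 3574 ± 28.0 per kb and made up 77.8% of the sum, with LOXL4 at 11.2% and LOXL2 at 9.74%. In 5 d spheres LOXL2 led again at 581 ± 12.9 per kb, with 38.5% for LOXL2, 29.6% for LOX and 27.9% for LOXL4. The level of P4HA1 in spheres at 5 d, 578 ± 1.45 per kb, did not differ from that of LOXL2 beyond the spread of the libraries. LOX at 446 ± 14.8 and LOXL4 at 420 ± 1.74 per kb were the next of the lysyl oxidases and did not overlap. The lysyl oxidase sum was 924 ± 18.7 per kb in adherent cells, 4593 ± 61.1 at 16 h and 1508 ± 0.263 at 5 d.

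The hydroxylases kept their order. P4HA1 made up 75.3%, 85.4% and 81.7% of the alpha subunit sum per kb in adherent cells, 16 h spheres and 5 d spheres, and P4HA2 made up 15.8%, 13.2% and 15.0%. With PLOD3, the family member that also carries glycosyltransferase activity, counted in, PLOD1 made up 53.2%, 72.5% and 61.2% of the lysyl hydroxylase sum and PLOD2 26.3%, 17.7% and 24.7%. The share of PLOD1 was highest at 16 h, and that of PLOD2 lowest. These shares carry no test.

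**Figure D3:**
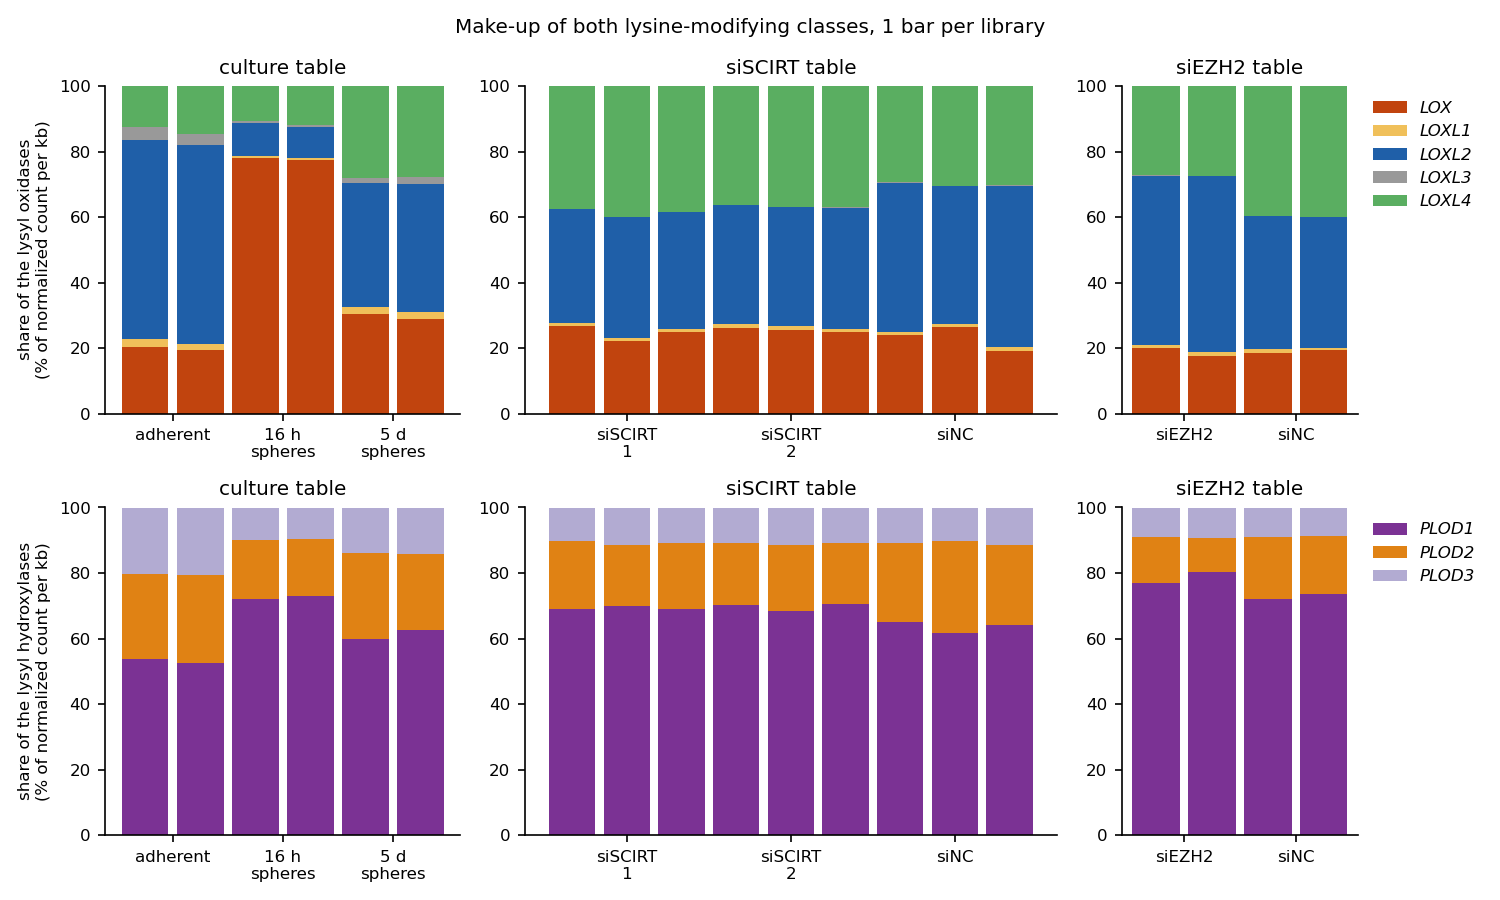
Share of each gene in the summed normalized count per kb of its class, lysyl oxidases above and lysyl hydroxylases with PLOD3 below; each bar is a library, grouped by table. LOX fills 77.8% of the lysyl oxidase bars at 16 h, against 19.8% in adherent cells, and LOXL4 takes 38.6% with siSCIRT 1, 36.8% with siSCIRT 2 and 30.1% with siNC.

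HIF-1 binds DNA at a core of the letters ACGTG or GCGTG, so the stretches before the gene starts were searched for these letters on both strands, with overlapping matches counted as 1. RefSeq gives the windows on GRCh38.p14, as 250 bases upstream of the start. Of the 10 genes, 8 had a window that was read. LOX held 4 matches, PLOD2 3, PLOD1 2 and P4HA1 1, and LOXL1, LOXL3, LOXL4 and P4HA2 held none. Of all 35116 windows of this length, 43.2% held at least 1 match, 16.3% at least 2, 5.62% at least 3 and 1.89% at least 4. A match is a run of letters and not a site, and only 250 bases before 1 start of each gene were read. LOXL4 and P4HA2, which rose at both sphere times, had no match there, and bases elsewhere were not searched. The sequences below are those of the genes with a match and, as a window without one, of LOXL4. They read 5′ to 3′ on the strand of the gene, with matches in capitals.
LOX, minus strand, chr5:122078260-122078509: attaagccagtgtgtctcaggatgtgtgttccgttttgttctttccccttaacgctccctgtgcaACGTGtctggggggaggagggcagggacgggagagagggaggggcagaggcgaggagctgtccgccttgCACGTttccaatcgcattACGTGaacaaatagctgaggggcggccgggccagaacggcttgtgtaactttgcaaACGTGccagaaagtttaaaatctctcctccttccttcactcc
PLOD2, minus strand, chr3:146161185-146161434: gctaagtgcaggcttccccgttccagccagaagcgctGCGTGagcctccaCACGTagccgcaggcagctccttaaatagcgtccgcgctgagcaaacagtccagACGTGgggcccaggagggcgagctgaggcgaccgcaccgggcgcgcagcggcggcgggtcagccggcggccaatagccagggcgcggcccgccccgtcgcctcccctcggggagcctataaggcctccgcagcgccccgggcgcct
PLOD1, plus strand, chr1:11934467-11934716: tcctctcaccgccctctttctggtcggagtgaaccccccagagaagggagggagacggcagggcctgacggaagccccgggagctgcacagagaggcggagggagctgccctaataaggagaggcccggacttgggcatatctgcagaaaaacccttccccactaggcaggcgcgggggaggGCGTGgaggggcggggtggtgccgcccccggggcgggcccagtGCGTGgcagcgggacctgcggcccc
P4HA1, minus strand, chr10:73096867-73097116: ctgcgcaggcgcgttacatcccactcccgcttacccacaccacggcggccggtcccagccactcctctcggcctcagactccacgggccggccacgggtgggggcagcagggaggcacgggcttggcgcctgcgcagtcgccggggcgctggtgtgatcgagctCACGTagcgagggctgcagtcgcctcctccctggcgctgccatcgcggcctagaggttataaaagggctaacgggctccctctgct
LOXL4, minus strand, chr10:98268195-98268444: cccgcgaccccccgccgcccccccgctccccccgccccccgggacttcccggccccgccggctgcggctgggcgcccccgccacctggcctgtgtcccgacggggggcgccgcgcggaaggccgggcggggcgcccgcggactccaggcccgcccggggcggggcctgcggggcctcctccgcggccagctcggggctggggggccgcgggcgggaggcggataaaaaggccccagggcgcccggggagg

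The LOX matches were spread over the window, with first bases 185, 116, 98 and 42 bases before the start, and those of PLOD2 lay farther out, at 213, 200 and 146. The PLOD1 matches began 68 and 25 bases before the start, and that of P4HA1 86 bases before it. The window of LOXL4 was 86.4% G and C, the highest of the 8, against 55.2% for LOX and a median of 58% over all windows. Among the 6 genes that rose at 16 h, LOX had the most matches and the largest rise. P4HA1 with 1 match rose by 2.26, and PLOD2 with 3 matches by 1.09. A relation between the number of matches and the size of the rise was not tested.

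The other genes of the pathway were grouped by role. The HIF axis list, 16 genes of the factor, its prolyl hydroxylases and known targets, was all tested: 15 rose at 16 h and none fell, and at 5 d 13 rose and 1 fell, with medians of 0.99 and 0.66. Of all genes, 27.4% were called higher at 16 h and 26.3% at 5 d, and those shares stand beside the counts of every list here. EGLN3, an oxygen sensor and HIF target, rose by 4.26 ± 0.10 at 16 h and by 2.31 ± 0.10 at 5 d. VEGFA, the angiogenic growth factor, rose by 1.77 ± 0.03 and 0.84 ± 0.03, ADM, the peptide adrenomedullin, by 2.51 ± 0.06 and 0.54 ± 0.06, and BNIP3, a mitophagy receptor, by 1.52 ± 0.04 and 1.43 ± 0.04. SLC2A1, the glucose transporter, was the gene of this list that fell at 5 d, by 0.39 (limma adjusted p = 3.5e-14).

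Most substrate genes tested rose as well. Of 17 collagen chains and elastin, 11 were tested: 9 rose and 2 fell at 16 h, and 9 rose and 1 fell at 5 d, with medians of 2.06 and 0.99. COL6A3, a chain of microfibrillar collagen, rose by 5.61 ± 0.10 at 16 h and 4.03 ± 0.10 at 5 d, and COL6A1 by 1.85 ± 0.05 and 1.44 ± 0.05. COL5A1, which nucleates fibrils, rose by 2.95 ± 0.08 and 2.37 ± 0.08, and COL7A1, of anchoring fibrils, by 4.92 ± 0.23 and 2.37 ± 0.23. COL12A1 and COL13A1 fell at 16 h by 0.85 and 0.72. Chains of fibrillar type I and III collagen were scarce in the culture table: COL1A1 averaged 59.8 ± 10.3 normalized counts at 16 h (SD, n = 2), COL1A2 did not pass the filter, and COL3A1 was not listed.

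Partners of the hydroxylases moved in both directions. Of 8 partners and prolyl 3-hydroxylation genes, 7 were tested, of which 5 rose and 1 fell at 16 h and 3 rose and 4 fell at 5 d. P4HTM, a transmembrane prolyl hydroxylase that acts on HIF, had 0.07 ± 0.16 at 16 h and fell at 5 d, at -0.77 ± 0.16. P4HB, the shared subunit of prolyl 4-hydroxylase, rose by 0.61 ± 0.02 at 16 h and 0.10 ± 0.02 at 5 d. CRTAP, of the prolyl 3-hydroxylase complex, rose by 0.51 ± 0.04 at 16 h and fell by 0.37 at 5 d. LEPREL1, a prolyl 3-hydroxylase gene, fell at both times, with log2 fold changes of -2.70 ± 0.10 and -1.66 ± 0.10, and its paralogue LEPRE1 rose by 0.42 ± 0.07 and 0.38 ± 0.07. In the list of lysyl hydroxylation and glycosylation, PLOD3 rose by 0.58 ± 0.07 at 16 h and had -0.05 ± 0.07 at 5 d. The collagen galactosyltransferase COLGALT1 rose by 0.34 ± 0.04 and fell by 0.17, and its paralogue COLGALT2 fell by 1.27 and 0.86. The counts of this list were 2 higher and 1 lower of 3 tested at 16 h, and 0 higher and 2 lower at 5 d.

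Of 9 tested genes of collagen folding and export, 5 rose and none fell at 16 h, and 4 rose and none fell at 5 d. SERPINH1, the collagen chaperone HSP47, rose by 0.86 ± 0.05 and 0.78 ± 0.05, and KLHL12, an adaptor for large COPII carriers, by 0.88 ± 0.10 and 0.60 ± 0.10. MIA3, the cargo receptor TANGO1, rose by 0.41 ± 0.05 and 0.25 ± 0.05. FKBP7, a prolyl isomerase of the endoplasmic reticulum, rose by 1.03 ± 0.16 at 16 h and had 0.10 ± 0.16 at 5 d. Of the genes that process procollagen and pro-lysyl oxidase, 4 of 10 were tested, and 3 rose at 16 h and 1 at 5 d. BMP1, the protease that releases active lysyl oxidase from its propeptide, rose 2.14-fold at 16 h (limma adjusted p = 7.2e-11) and had -0.06 ± 0.11 on the log2 scale at 5 d, while FN1, the fibronectin on which that cleavage takes place, rose by 5.19 ± 0.02 and 3.11 ± 0.02. PCOLCE2, an enhancer of procollagen C-proteinase, rose by 1.13 ± 0.42 at 16 h (adjusted p = 0.022) and had 0.60 ± 0.42 at 5 d, and its paralogue PCOLCE was called at neither time. Of 5 tested copper and ascorbate genes, 1 rose and 3 fell at 16 h, and 1 rose and 4 fell at 5 d. ATP7A, the pump that loads secreted copper enzymes, rose by 1.00 ± 0.15 and 1.09 ± 0.15, and SLC23A2, an ascorbate transporter, fell at both times, with -1.04 ± 0.16 at 5 d. GSTO1, a dehydroascorbate reductase, had -0.21 ± 0.05 and -1.03 ± 0.05, and SLC31A1, the copper importer, -0.20 ± 0.07 and -0.23 ± 0.07, all called.

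**Figure D4:**
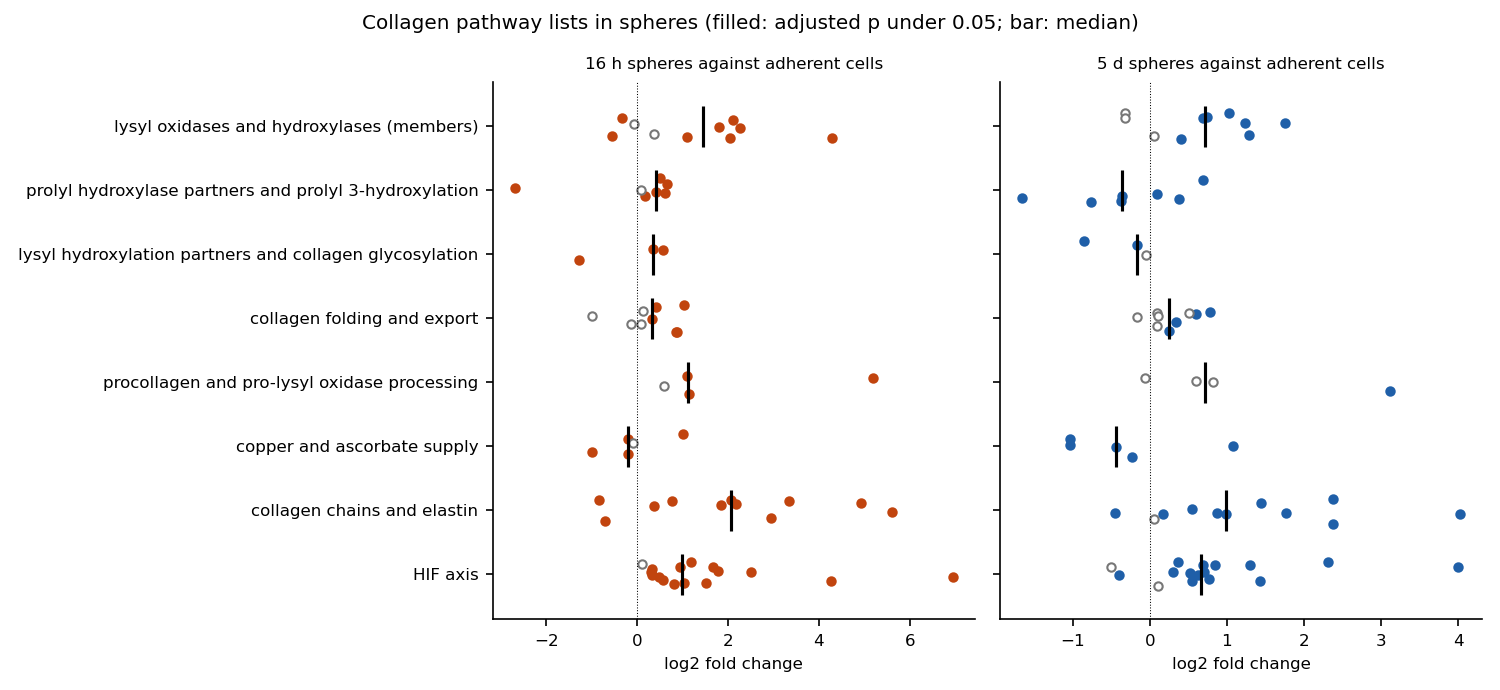
Log2 fold changes of the genes tested in each list, in 16 h spheres (left) and 5 d spheres (right) against adherent cells; filled points passed an adjusted p under 0.05 and the black bar is the median of the list. The medians of the 10 enzymes are 1.45 and 0.72, beside 2.06 and 0.99 for the collagen chains and 0.42 and -0.36 for the prolyl hydroxylase partners.

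The kit did not mark the strand, so reads of a gene cannot be told from reads of an opposite gene where their exons share bases. SRFBP1 shares 138 exon bases with LOX on the opposite strand in GENCODE 29, and it had 225 ± 21.7 normalized counts in adherent cells, 2829 ± 1.79 in spheres at 16 h and 489 ± 24.6 in spheres at 5 d (SD, n = 2 each). It was highest at 16 h as LOX was, at 22.2%, 14.3% and 19.8% of the LOX mean. LOXL3 shares 625 bases with HTRA2 and 216 with DOK1, and P4HA3 shares 166 with PPME1, each more abundant than the enzyme gene in the siRNA tables. In adherent cells, spheres at 16 h and spheres at 5 d, HTRA2 had 310%, 312% and 280% of the LOXL3 mean. DOK1 had 115%, 68.3% and 87.0% of it, and PPME1 had 868%, 1013% and 779% of the P4HA3 mean. ENTPD4 shares 120 bases with LOXL2 on the same strand and had 8.96%, 10.8% and 8.19% of the LOXL2 mean. LOXL1-AS1 shares 335 bases with LOXL1 on the opposite strand and had 119%, 55.8% and 74.4% of the LOXL1 mean in adherent cells, spheres at 16 h and spheres at 5 d. The values of LOXL1, LOXL3 and P4HA3 are therefore uncertain. AL731563.2 shares 47 bases with P4HA1 on the opposite strand and had 3.64%, 3.60% and 7.42% of the P4HA1 mean in the culture groups. In every siRNA group it had 0.0095% of that mean or less. Reads in shared bases may thus have been counted differently in the culture and siRNA tables. The part of the overlaps and of their counting in the results was not tested.

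The siRNA tables ask how the same genes stand in sphere medium at 48 h when SCIRT or EZH2 is silenced. SCIRT, listed as RP5-1120P11.1, was at 112 to 127 normalized counts with siSCIRT 1 and 105 to 159 with siSCIRT 2, against 256 to 287 with siNC (limma adjusted p = 0.00032 and 0.00066). EZH2 was at 275 and 278 with siEZH2, against 518 and 529 with siNC (adjusted p = 6.3e-08). EZH2 was also lower by 0.53 and 0.50 with siSCIRT 1 and siSCIRT 2 (adjusted p = 0.00056 and 0.0010). In the siSCIRT table the number of the siRNA stands in the column names of siSCIRT 2 alone, so siSCIRT 1 was assigned by elimination. Both siSCIRT comparisons share the siNC libraries. Mitochondrial genes took 5.76 to 6.11% of reads with siSCIRT 1 and 5.54 to 6.11% with siSCIRT 2, against 6.11 to 6.60% with siNC, and the part of this in the results was not tested.

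With each siSCIRT, 3 of the 10 genes rose and none fell: LOXL4, P4HA2 and PLOD1. All genes called came to 10.2% with siSCIRT 1 and 9.54% with siSCIRT 2, 4.63% and 4.49% higher and 5.56% and 5.05% lower. The medians of the 10 genes were 0.26 and 0.29, against 0.01 over all genes for each siRNA. Between siSCIRT 1 and siSCIRT 2 limma called none of the 10 genes and 0 of the 16607 genes tested (0.0%), where 451 genes had an unadjusted p under 0.05 and DESeq2 called 6 genes. None of the 10 had an unadjusted p under 0.05 there, and 2 of the 10 did not overlap, beside 7.34% of all genes.

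LOXL4 was the member with the largest called change. It held 26251, 24682 and 23721 normalized counts with siSCIRT 1 and 22992, 21436 and 23106 with siSCIRT 2, against 16657, 18299 and 14416 with siNC. Every knockdown library lay above every siNC library. On the log2 scale the differences were 0.60 ± 0.08 (limma adjusted p = 0.00024) and 0.46 ± 0.08 (adjusted p = 0.0021). Both calls held whichever library was left out, with ranges of 0.51 to 0.68 and 0.37 to 0.54. AL139241.1, which shares 152 exon bases with LOXL4 on the opposite strand, had 209 ± 15.0 with siSCIRT 1 and 187 ± 11.9 with siSCIRT 2, against 100 ± 10.1 with siNC (SD, n = 3 each), under 1% of the LOXL4 mean in each group.

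P4HA2 had 8933, 7873 and 7951 normalized counts with siSCIRT 1 and 8310, 7748 and 8722 with siSCIRT 2, against 6845, 7030 and 6190 with siNC. Neither knockdown group overlapped siNC, which was so for 5 of the 10 genes with each siRNA and for 28.1% and 26.5% of all genes tested. The differences were 0.30 ± 0.07 for each siRNA (limma adjusted p = 0.015 and 0.016). Without siNC replicate 3 they were 0.25 and 0.25 and no longer called (adjusted p = 0.091 and 0.095). The siSCIRT 1 call was also lost without the library in column 1 of that siRNA (0.24, adjusted p = 0.055), and the siSCIRT 2 call without its replicate 3 (0.26, adjusted p = 0.084). Without the trend neither P4HA2 call was made (adjusted p = 0.081 and 0.084).

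PLOD1 had 38030, 35408 and 34422 normalized counts with siSCIRT 1 and 39043, 34757 and 38465 with siSCIRT 2, against 32741, 30405 and 27611 with siNC. Each knockdown library lay above the siNC ones, by little. The log2 fold changes were 0.25 ± 0.08 (limma adjusted p = 0.049) and 0.31 ± 0.08 (adjusted p = 0.019). The siSCIRT 1 call was lost in 5 of 6 leave-one-out fits (log2 0.19 to 0.28), all but that without siNC replicate 1. It was also lost with edgeR (adjusted p = 0.061), the values as deposited (0.053), only the compared groups (0.065) and no trend (0.14). The siSCIRT 2 call was lost without siNC replicate 3 (0.24, adjusted p = 0.11), siSCIRT 2 replicate 1 (0.28, adjusted p = 0.066) or siSCIRT 2 replicate 3 (0.29, adjusted p = 0.083), and without the trend (adjusted p = 0.087).

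PLOD2 pointed the other way. It had 16339, 13596 and 14393 normalized counts with siSCIRT 1 and 15182, 14724 and 14530 with siSCIRT 2, against 17402, 19844 and 15135 with siNC. The log2 fold changes were -0.24 ± 0.09 and -0.23 ± 0.09 and were not called (limma adjusted p = 0.12 and 0.13). Without siNC replicate 3 both passed (-0.34, adjusted p = 0.038, and -0.33, adjusted p = 0.047), and without the column 1 library siSCIRT 1 passed too (-0.31, adjusted p = 0.044). With the replicate number as a block in limma, siSCIRT 2 passed as well (adjusted p = 0.031). PLOD1 made up 69.3% of the lysyl hydroxylase sum per kb with siSCIRT 1 and 69.7% with siSCIRT 2, against 63.6% with siNC, and PLOD2 19.8% and 19.2%, against 25.5%.

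LOX itself was not called. Its normalized counts were 28507, 20735 and 23444 with siSCIRT 1 and 25165, 22548 and 23491 with siSCIRT 2, against 20586, 24075 and 13893 with siNC. Replicate 3 was far below the other siNC libraries, and the siNC range was wider than the difference, which was 0.34 ± 0.17 and 0.32 ± 0.17 on the log2 scale (limma adjusted p = 0.25 and 0.28). Without siNC replicate 3 the LOX values were 0.11 and 0.09. P4HA1 had 17353, 14178 and 14233 with siSCIRT 1 and 15334, 15636 and 14276 with siSCIRT 2, against 12410, 14516 and 10956 with siNC, with log2 fold changes of 0.28 ± 0.10 and 0.26 ± 0.10 (adjusted p = 0.099 and 0.11). Without siNC replicate 2 P4HA1 was called, at 0.38 (adjusted p = 0.016) and 0.37 (adjusted p = 0.020). With the replicate number as a block P4HA1 was called for siSCIRT 2 (adjusted p = 0.0085). LOXL1 had 544 to 586 with siSCIRT 1 and 568 to 656 with siSCIRT 2, against 450 to 534 with siNC, with 0.20 ± 0.10 and 0.32 ± 0.10 (adjusted p = 0.22 and 0.054). With siSCIRT 2 LOXL1 was called without siSCIRT 2 replicate 2 (0.37, adjusted p = 0.048) and with a filter at a mean of 50 (adjusted p = 0.045). It was also called with quantile normalization (0.047), with the replicate block (0.034) and with DESeq2 (0.018). LOXL2 was at 34376 to 37983 and 32957 to 36103, against 36691 to 40190 with siNC, with -0.11 ± 0.07 and -0.15 ± 0.07 (adjusted p = 0.38 and 0.20).

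LOXL3, at 65.7 to 98.0 normalized counts across the 9 libraries, and P4HA3, at 18.4 to 48.9, were low. LOXL3 had log2 fold changes of 0.07 with each siSCIRT (limma adjusted p = 0.88 and 0.87), and P4HA3 had 0.72 and 0.27 (adjusted p = 0.14 and 0.63). Of the siNC libraries, replicate 2 was the lowest for LOXL3 and P4HA3. The siNC replicate 3 library was the lowest siNC library for all other members. LOXL2 was among them (36691, against 40190 and 39664 in siNC replicates 1 and 2). It was also the lowest siNC library for the HIF targets CA9 (567, against 773 and 714 in siNC replicates 1 and 2), VEGFA (51419, against 61112 and 63190), EGLN3 (5014, against 5910 and 7212) and ADM (7309, against 11076 and 10675). The other HIF axis genes and the share over all genes are not given here for this library. Fits without siNC replicate 3 are given above for LOX, P4HA2, PLOD1 and PLOD2, and its part was not tested otherwise.

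Per kb, LOXL4 was below LOXL2 with siNC, and its range overlapped that of LOXL2 with each siSCIRT. Within each siSCIRT 1 library LOXL4 was above LOXL2, at 7186 and 6656, 6757 and 6284, and 6494 and 6023. Within the siSCIRT 2 libraries the order was mixed, at 6294 and 6296, 5868 and 5775, and 6325 and 6326. LOXL4 stood at 6812 ± 350 and LOXL2 at 6321 ± 318 with siSCIRT 1, and the levels were 6162 ± 255 and 6132 ± 310 with siSCIRT 2, against 4505 ± 534 and 6807 ± 331 with siNC (SD, n = 3 each). LOXL4 made up 38.6% and 36.8% of the lysyl oxidase sum with siSCIRT 1 and siSCIRT 2, against 30.1% with siNC.

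**Figure D5:**
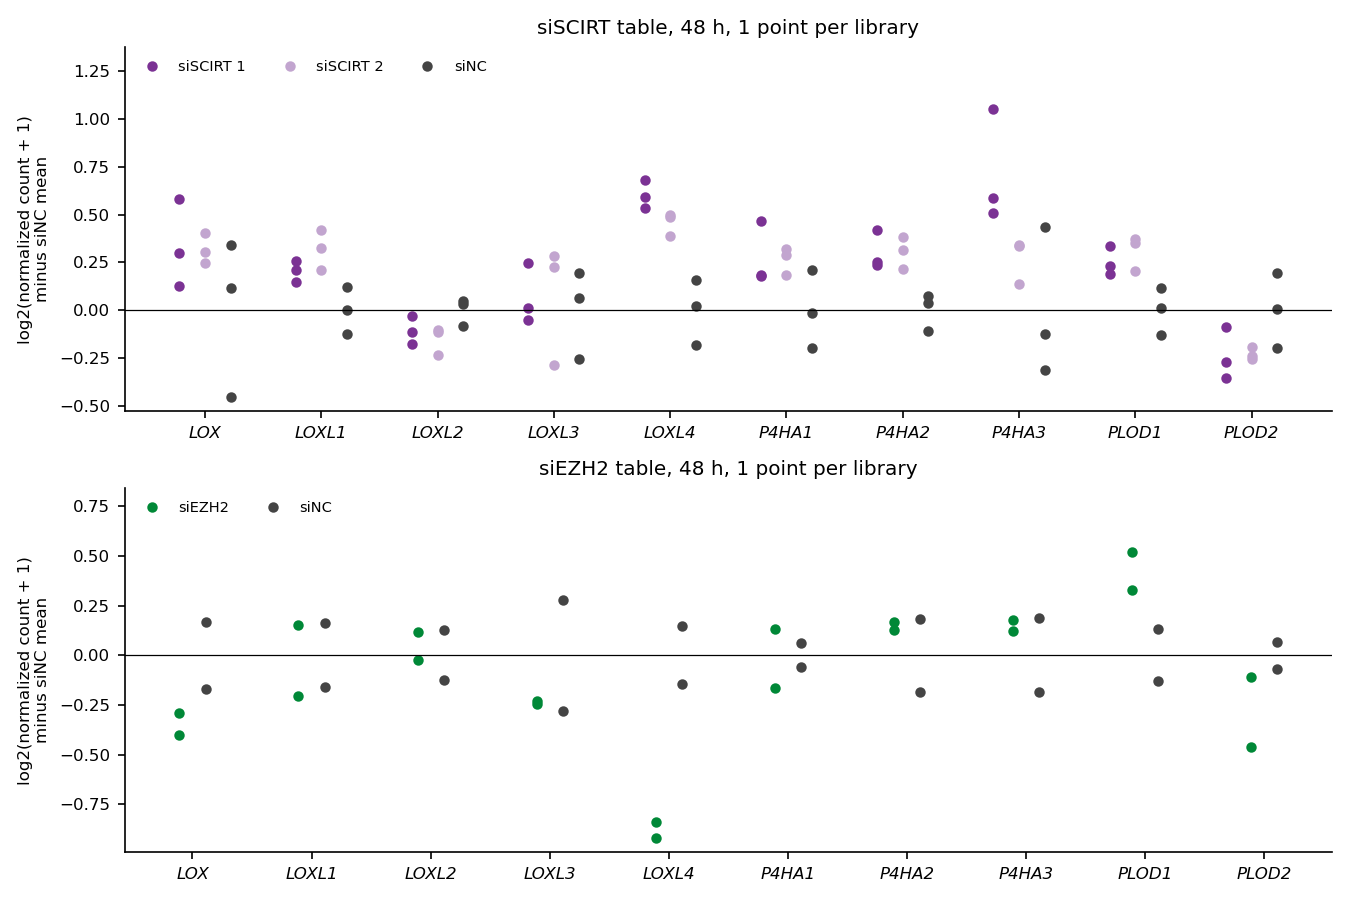
Log2(normalized count + 1) of each gene minus the mean of siNC in the same table, 1 point per library, for siSCIRT 1, siSCIRT 2 and siNC (top) and for siEZH2 and siNC (bottom). LOXL4 lies above siNC with both siSCIRT (0.60 and 0.46) and below it with siEZH2 (-0.88).

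With siEZH2, LOXL4 fell and PLOD1 rose, the 2 members called of 10, beside 6.84% of all 15823 genes tested, 3.9% higher and 2.94% lower. The median of the 10 genes was -0.02, against 0.01 over all genes. LOXL4 held 8301 and 8785 normalized counts with siEZH2, against 14215 and 17375 with siNC. Both knockdown libraries lay far below the control ones, and the log2 fold change was -0.88 ± 0.12 (limma adjusted p = 2.2e-10), with a range of -1.02 to -0.74 over the left-out libraries, all called. Without the trend in eBayes, which called 0 of all genes in this table, the adjusted p of LOXL4 was 0.075. AL139241.1 had 57.1 ± 5.02 with siEZH2, against 104 ± 20.8 with siNC (SD, n = 2 each).

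PLOD1 had 33296 and 38043 normalized counts with siEZH2, against 24244 and 29030 with siNC, a log2 fold change of 0.42 ± 0.13 (limma adjusted p = 0.021). The call was lost without siEZH2 replicate 1 (0.52, adjusted p = 0.055), siEZH2 replicate 2 (0.33, adjusted p = 0.30) or siNC replicate 1 (0.29, adjusted p = 0.33), and without the trend (adjusted p = 0.25). PLOD1 was not called with the replicate number as a block either (limma adjusted p = 0.062). PLOD3 rose as well, by 0.38 ± 0.12 (adjusted p = 0.027). PLOD2 had 8871 and 6955 with siEZH2, against 9131 and 10046 with siNC, at -0.29 ± 0.12 (adjusted p = 0.15), and was called without siEZH2 replicate 1 (-0.46, adjusted p = 0.034) and with quantile normalization (-0.36, adjusted p = 0.027). The share of PLOD2 in the lysyl hydroxylase sum per kb was 12.2% with siEZH2, against 18.3% with siNC, and that of PLOD1 78.6%, against 72.9%.

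LOX had 9274 and 8609 normalized counts with siEZH2, against 10104 and 12779 with siNC, a log2 fold change of -0.35 ± 0.12 (limma adjusted p = 0.059). The groups did not overlap, as for 4 of the 10 genes and 47.9% of all genes tested, and LOX was called without siNC replicate 1 (-0.52, adjusted p = 0.022) and with quantile normalization (-0.44, adjusted p = 0.0026). P4HA1 had 10823 and 8786 with siEZH2, against 9466 and 10275 with siNC, and its value of -0.02 ± 0.12 (adjusted p = 0.96) was well inside the spread. P4HA2 had 7609 and 7388, against 5952 and 7692 (0.15 ± 0.12, adjusted p = 0.55), and LOXL2 24533 and 26994, against 22856 and 27183 (0.05 ± 0.13, adjusted p = 0.89). LOXL1, LOXL3 and P4HA3 overlapped their controls, at -0.03 ± 0.15, -0.24 ± 0.26 and 0.15 ± 0.32. LOXL4 made up 27.3% of the lysyl oxidase sum with siEZH2, against 39.7% with siNC, and LOXL2 52.7%, against 40.3%.

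Whether a gene responded differently to siEZH2 and to siSCIRT was tested in 1 limma fit over the 13 siRNA libraries, each response against the siNC libraries of its own table. This fit was added after the values had been seen. It called 2309 of 15369 genes, 15%, and LOXL4 was the member called. Its siEZH2 response minus the mean siSCIRT response was -1.41 ± 0.13 on the log2 scale (adjusted p = 1.8e-07). The difference for LOX was -0.67 ± 0.26 (adjusted p = 0.11), and for PLOD1 it was 0.14 ± 0.13 (adjusted p = 0.51). The experiments were run and scaled as separate tables, and a difference between the experiments cannot be told apart from the difference between the siRNAs.

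Of all genes, 10.2% were called with siSCIRT 1, 9.54% with siSCIRT 2 and 6.84% with siEZH2, and these shares stand beside the list counts here. No gene of 8 tested prolyl hydroxylase partners, and none of 6 copper and ascorbate genes, was called with either siSCIRT. At those shares lists this short hold few calls, so the lack of calls is not read as a result about them. Of 15 tested collagen chains, 4 rose and 3 fell with siSCIRT 1 and 4 rose and 2 fell with siSCIRT 2. COL7A1 rose by 0.60 ± 0.09 and 0.90 ± 0.09, COL5A1 by 0.54 ± 0.08 and 0.58 ± 0.08, and COL6A1 by 0.49 ± 0.06 and 0.57 ± 0.06. Of the 16 HIF axis genes 2 rose with each siSCIRT and none fell: CA9, a carbonic anhydrase, by 0.50 ± 0.14 and 0.53 ± 0.14, and VEGFA by 0.38 ± 0.09 and 0.42 ± 0.09. With siEZH2 2 of 15 collagen chains rose and 2 of 16 HIF axis genes rose, ADM by 0.92 ± 0.12 and EGLN3 by 0.52 ± 0.12.

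For LOX, P4HA1, PLOD2 and LOXL2 the genes most like them were sought as the smallest Euclidean distance over 5 log2 fold changes, both spheres against adherent cells, both siSCIRT and siEZH2, among 8797 genes with a mean of at least 100 in each table. The sphere comparisons share adherent libraries and the siSCIRT ones share siNC libraries. The distance is not scaled to the size of a gene's changes, so distances are not compared between members. LOX, with the largest change at 16 h, was nearest to C1R at 0.61, TLR2 at 0.68 and CXCL1 at 0.70. P4HA1 was nearest to ADAM8 (0.20), OSBPL5 (0.25) and GPR153 (0.27), and PLOD2 to SRGN (0.22), MMD (0.23) and KDR (0.31). LOXL2, which changed little, was nearest to POMP (0.07), PRKCDBP (0.07) and SNRPB2 (0.08).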

How the data were processed

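RNA was extracted with TRI Reagent and libraries were made with the TruSeq RNA v2 kit, per the labels' protocols. The submitters' processing notes name hg19, CASAVA 1.4, TopHat2 and Partek, and the counting program is not given in the sources used here. For culture and siSCIRT the deposited values are on a log2 scale and, judged from the values, have the form of DESeq2's variance-stabilizing transform, and the deposited siEZH2 table holds normalized counts (signal). The transform was inverted exactly, and 100% of values in all 19 libraries came out as whole reads at a tolerance of 0.05, which gave the depths. On these reads edgeR called 7768 genes at 16 h and 7874 at 5 d against adherent cells, 1704 with siSCIRT 1, 1576 with siSCIRT 2 and 1081 with siEZH2, where limma called 7430, 7614, 1693, 1584 and 1082. Groups came from sample titles.

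Each table was fitted alone with limma 3.58.1 (R 4.3.3, eBayes with trend and robust) on log2(normalized count + 1), for genes with a mean of at least 10. Fold changes of low genes are understated by the added 1. Calls are Benjamini-Hochberg adjusted p under 0.05, two-sided. The limma and edgeR code was tested on simulated counts, for the first comparison of each table, with the same spread setting for all genes. That setting cannot show how the calls on the real libraries depend on the trend. As alternatives, quantile normalization, eBayes without a trend, a replicate block, a pseudocount of 8, a filter at a mean of 50 or none, only the compared groups, edgeR 4.0.16, DESeq2 1.42.0, the values as deposited and leaving out each library were tried. Members and lists were chosen with earlier results of these data known. Named were the members, up to 4 genes per list with the smallest adjusted p at 16 h, markers and siRNA targets; SLC2A1, COL12A1, COL13A1, COL1A1, the genes called in siRNA tables and the overlapping genes were named after their values were seen. Exon overlaps and lengths came from GENCODE 29, which is on another build than the tables, and promoter windows from RefSeq. Sequence of LOXL2 and P4HA3 was not used here.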

Additional observations from a re-analysis of the deposited data

Results flagged for a closer look

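The response to sphere culture differed between 5 d and 16 h in 7 of the 10 genes, by the limma test of the difference itself, which is the comparison of 5 d with 16 h spheres and called 48.3% of all genes tested. LOX had the largest difference, -3.00 on the log2 scale, followed by PLOD1 at -1.41, P4HA1 at -1.03, P4HA2 at -0.78, PLOD2 at -0.68 and LOXL4 at -0.29. LOXL2 differed in the other direction, by 0.38. The share of mitochondrial reads also differed, at 9.65 to 9.74% in 5 d spheres and 8.55 to 8.56% in 16 h spheres, and its part in the result was not tested.

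LOXL4 responded in opposite directions to the siRNAs, and its siEZH2 response minus its mean siSCIRT response was -1.41 ± 0.13 (limma adjusted p = 1.8e-07). The direction and the call held over all 13 libraries left out in turn, with values from -1.55 to -1.27.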

How the results depend on the processing

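For LOX, P4HA1, P4HA2, PLOD1, PLOD2, LOXL2 and LOXL4 in both sphere comparisons, and for LOXL4 with each siSCIRT, no alternative changed the direction or the side of the threshold. Over all results, 918 values kept both, 35 lost a call, 21 gained one and 34 changed sign. Causes were not tested.

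Without the trend, siSCIRT 1 called 1 member and 964 genes, siSCIRT 2 called 1 and 824, and siEZH2 called 0 and 0. Quantile normalization called 4 members with siEZH2, LOX and PLOD2 added, and 1072 genes, and DESeq2 called 678 genes there. Between siSCIRT 1 and siSCIRT 2, no filter called 2 genes, the compared groups alone 1 and DESeq2 6. Leaving out 1 library gave 886 to 1830 genes with siSCIRT 1, 1 to 4 members and 769 to 1816 genes with siSCIRT 2, 1 to 2 members and 339 to 1035 genes with siEZH2, and 1491 to 2555 genes for the siEZH2 minus siSCIRT response.

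The replicate block called 6 members and 2642 genes with siSCIRT 2 and 1 member and 532 genes with siEZH2. With siSCIRT 2 it added P4HA1 and LOXL1 as higher and PLOD2 as lower (limma adjusted p = 0.0085, 0.034 and 0.031). With siEZH2 the PLOD1 call was lost (adjusted p = 0.062). Numbers were not taken as pairs: the correlation of deviations between same-numbered libraries was 0.2051, 0.1241 and 0.0568 for siSCIRT 2 with siNC, where each library correlated best with its own number, -0.0854 for siEZH2, and -0.0089 to 0.0185 in culture. No block could be fitted for siSCIRT 1, whose columns carry no number that could be matched.

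The sign changes were these. With quantile normalization P4HA2 was 0.0083 between siSCIRT 1 and siSCIRT 2, and LOXL2 was -0.031 with siEZH2. With 1 library left out, LOXL3 ranged from -0.21 to 0.087 at 16 h, and P4HA3 from -0.73 to 0.087 at 5 d and from -0.17 to 0.65 for 5 d against 16 h. LOXL3 ranged from -0.058 to 0.17 with siSCIRT 1 and from -0.053 to 0.26 with siSCIRT 2. Between siSCIRT 1 and siSCIRT 2 the ranges were -0.10 to 0.12 for LOX, -0.085 to 0.060 for P4HA1, -0.060 to 0.038 for P4HA2, -0.18 to 0.10 for LOXL3 and -0.082 to 0.050 for PLOD2. With siEZH2 they were -0.21 to 0.15 for LOXL1, -0.17 to 0.13 for P4HA1, -0.079 to 0.17 for LOXL2, -0.037 to 0.33 for P4HA2, -0.037 to 0.34 for P4HA3 and -0.52 to 0.041 for LOXL3.

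Depth limits LOXL3 and P4HA3 in each table, with 240 reads or fewer in every library, and LOXL1 in the culture table. The siEZH2 comparison rests on 2 libraries a group, and its count of calls rests on the trend.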

Other observations

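COL4A1 and COL4A2, the chains of basement membrane collagen, were called in every knockdown. COL4A1 was at 2801, 2825 and 2851 normalized counts with siSCIRT 1 and 2937, 3196 and 3160 with siSCIRT 2, against 4050, 4156 and 4635 with siNC, so that every knockdown library lay below every control. The differences were -0.60 ± 0.07 and -0.46 ± 0.07 (limma adjusted p = 6.5e-05 and 0.00057). With siEZH2 COL4A1 was at 2483 and 2710, against 1552 and 1777 with siNC, and rose by 0.64 ± 0.12 (adjusted p = 9.6e-06). COL4A2 fell by 0.43 and 0.32 with siSCIRT 1 and siSCIRT 2 and rose by 0.52 ± 0.12 with siEZH2. In the limma fit over the 13 siRNA libraries, the siEZH2 response minus the mean siSCIRT response was 1.17 ± 0.11 for COL4A1 (adjusted p = 2.7e-07) and 0.90 ± 0.12 for COL4A2 (adjusted p = 2.5e-05).

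Other genes of the collagen lists were called in 1 or more knockdowns. With siEZH2, SEC23A, a COPII coat subunit, fell by 0.59, ADAMTS14, a procollagen N-proteinase, rose by 1.08 ± 0.27, and SLC31A1, the copper importer, rose by 0.40 ± 0.12. With siSCIRT 1 COL12A1 fell by 0.35 and KLHL12 fell by 0.25. POSTN, the matricellular protein periostin, averaged 18.5 normalized counts with siSCIRT 1 and 12.7 with siSCIRT 2, against 4.94 with siNC, and it passed the filter only through the knockdown groups, so no change is read from it. COL6A2 rose by 0.46 ± 0.08 with siSCIRT 1 and 0.53 ± 0.08 with siSCIRT 2. With siSCIRT 2, FKBP14, a prolyl isomerase of the endoplasmic reticulum, fell by 0.31.

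The antisense gene P4HA2-AS1, which shares 548 exon bases with P4HA2, had 31.3 ± 3.78 normalized counts in adherent cells, 160 ± 9.78 in spheres at 16 h and 56.5 ± 12.3 in spheres at 5 d (SD, n = 2 each). These were 7.11%, 10.4% and 6.28% of the P4HA2 mean. It was at 0 to 5.36 in the siSCIRT table and at 0 in every library of the siEZH2 table. Without strand marks its reads cannot be told from those of P4HA2 in the shared bases, so no change of P4HA2-AS1 is read from them.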
